A study of Mus musculus with 6 samples.

Results

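The Ikaros family is a group of 5 zinc finger transcription factors, Ikaros (*Ikzf1*), Helios (*Ikzf2*), Aiolos (*Ikzf3*), Eos (*Ikzf4*) and Pegasus (*Ikzf5*). All rows of the deposited expression table whose gene name was one of these 5 were taken, which gave 5 rows of 54532, 1 for each gene. RNA was sequenced from GFP+ leukemia cells sorted from mouse bone marrow, in a model of acute myeloid leukemia (AML) driven by RUNX1-ETO9a (RE9a), a truncated form of the fusion protein of t(8;21) leukemia that was introduced by a retrovirus into fetal liver progenitors. The *WT Phf6,RE9a* group (replicates 1, 2 and 3) carried floxed *Phf6* on its single X chromosome without Cre (*Phf6* fl/y). The *VC Phf6,RE9a* group (replicates 11, 12 and 13) carried the same floxed allele with Vav1-Cre, which is active in blood cells from fetal life on. The groups are called WT and VC below. Both carried RE9a and GFP, and the leukemias were passed through recipient mice. Whether the libraries of one group came from separate leukemias is not given in the sources used here, so p-values measure the spread between these libraries, which may be partly technical. The deposited whole-number counts summed to 16817994, 15675358 and 16691325 in the *WT Phf6,RE9a* libraries and to 16315278, 16095424 and 16039999 in the *VC Phf6,RE9a* libraries.

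Ikaros proteins bind DNA through zinc fingers near the N-terminus and form dimers, with themselves and with each other, through a pair of fingers at the C-terminus. Much of the Ikaros and Aiolos protein in lymphocytes is bound to the NuRD complex, which remodels chromatin and removes histone acetylation. Ikaros is needed for lymphocyte development and also acts in blood stem cells and in myeloid, mast and erythroid cells. Aiolos is known mainly from B and plasma cells, Helios and Eos from regulatory T cells, and Pegasus is the most distant relative and is widely expressed. *IKZF1* is deleted or mutated in human acute lymphoblastic leukemia, and *PHF6* encodes a nuclear protein of chromatin that is mutated in leukemias of T cells and of myeloid cells.

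The coding sequence of the second zinc finger is shown for each member, because it lies in the DNA-binding part on which the members are compared. The sequences are from GENCODE M21 (GRCm38), 5′ to 3′ on the coding strand, with the codons of the 2 cysteines and 2 histidines that hold the zinc ion in capitals.
Ikzf1: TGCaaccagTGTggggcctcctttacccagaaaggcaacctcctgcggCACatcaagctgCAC
Ikzf2: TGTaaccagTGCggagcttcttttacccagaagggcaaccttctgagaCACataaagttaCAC
Ikzf3: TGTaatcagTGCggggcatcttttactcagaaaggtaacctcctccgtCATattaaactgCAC
Ikzf4: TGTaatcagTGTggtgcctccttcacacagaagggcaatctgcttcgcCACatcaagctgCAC
Ikzf5: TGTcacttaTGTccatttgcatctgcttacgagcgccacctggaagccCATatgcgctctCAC

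These 63 bases lie in an exon of each gene, at chr11:11754024-11754086 for *Ikzf1*, chr1:69570581-69570643 for *Ikzf2*, chr11:98488940-98489002 for *Ikzf3*, chr10:128640229-128640291 for *Ikzf4* and chr7:131392501-131392563 for *Ikzf5*. Among *Ikzf1* to *Ikzf4*, pairs shared between 76.2% and 84.1% of the bases of this finger. *Ikzf5* shared between 41.3% and 47.6% with the others. Fingers were paired by their order in the protein, and whether the second finger of *Ikzf5* corresponds to that of the others was not tested.

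The longest run of identical bases between annotated transcripts of any pair of members was 32 bases, between *Ikzf2* and *Ikzf4*, which is shorter than the reads the study's methods describe.

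*Phf6*, the targeted gene, had 1044, 827 and 1142 counts in the WT libraries and 388, 314 and 331 in the VC libraries. The groups did not overlap, in the direction of the labels.

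2 of the 5 members, *Ikzf1* and *Ikzf4*, fell in VC cells, and 1, *Ikzf3*, rose from a level of a few reads. *Ikzf2* and *Ikzf5* did not pass the threshold, which was an adjusted p of 0.05 from edgeR's quasi-likelihood test over the 14169 genes that had enough counts. Of all genes tested, 44.2% were called at this threshold, 21.5% higher and 22.7% lower in VC cells, so calls in 3 of 5 members are not by themselves a result about the family. For the same 3 members the groups did not overlap, as for 57.3% of the genes tested. All 5 members had enough counts to be tested, *Ikzf3* only through its counts in the VC libraries. Levels that are set side by side between genes are the authors' FPKM, which are reads per length of gene and size of library. Counts of 1 gene are compared in CPM after scaling by TMM.

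**Figure D1:**
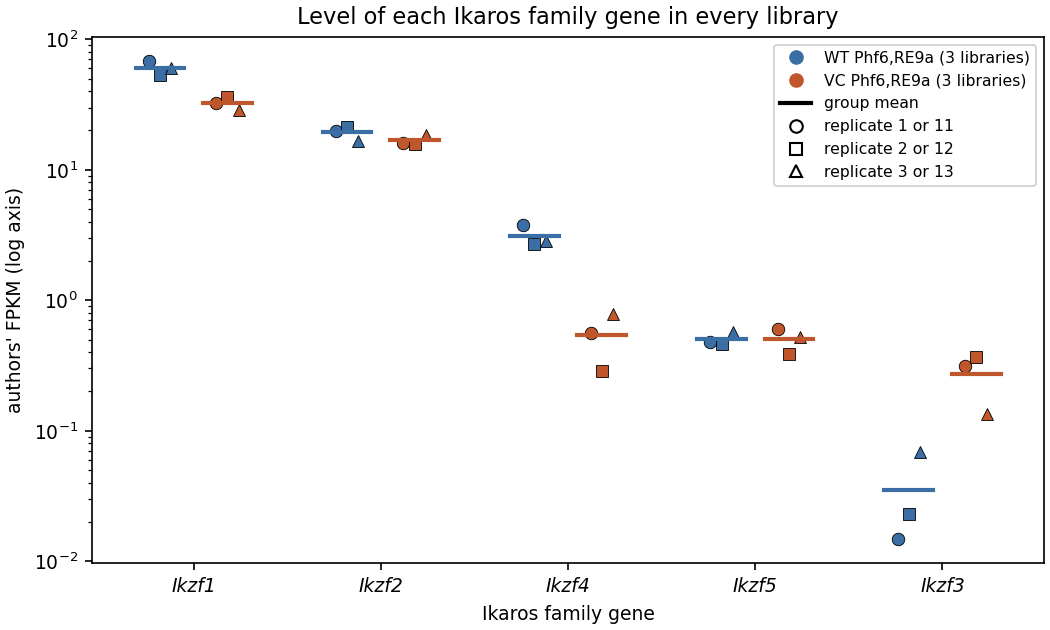
The authors' FPKM of each Ikaros family gene in every library, on a log axis, with WT in blue and VC in orange (3 libraries each) and a bar at each group mean. *Ikzf1* and *Ikzf2* lie above every other member in all 6 libraries, *Ikzf4* falls to the level of *Ikzf5* in VC cells, and *Ikzf3* is lowest in the WT cells.

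*Ikzf1* (ENSMUSG00000018654, GRCm38 chr11:11685003-11772926, plus strand) was the most abundant member in every library. It had 6103, 4575 and 5793 counts in WT and 3193, 3599 and 2867 in VC cells. All 3 VC libraries lay below all 3 WT libraries. In CPM the mean was 352 ± 42.9 in WT and 190 ± 19.7 in VC cells (SD, n = 3), which gave a log2 fold change of -0.89 ± 0.12 (SE, edgeR adjusted p = 0.000971). This was 1.86-fold lower, with a 95% interval of the log2 fold change from -1.18 to -0.61. The call held when each library was left out in turn, with log2 fold changes from -0.99 to -0.81. *Ikzf1* stayed among the more abundant genes, at a mean percentile of FPKM of 94.5 among the genes tested in WT and 88.4 in VC cells. Ikaros is known for short isoforms without some of the DNA-binding fingers. The gene has 6 annotated transcripts, which counts per gene do not separate.

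A gene on the opposite strand within *Ikzf1*, the antisense RNA *Gm12000*, had 52, 69 and 34 counts in WT and 23, 17 and 20 in VC cells (log2 fold change -1.51 ± 0.37 SE, edgeR adjusted p = 0.013). The sources used here do not say that counting used strand, and the kit does not mark it, so reads of *Ikzf1* and *Gm12000* cannot be told apart. The count of *Gm12000* was small beside that of *Ikzf1*.

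*Ikzf4* (ENSMUSG00000002578, GRCm38 chr10:128630843-128645991, minus strand), which encodes Eos, a partner of Foxp3 in regulatory T cells, had the larger fold decrease. Its counts were 349, 242 and 287 in WT and 58, 30 and 80 in VC cells. The groups were far apart, and replicate 12 was the lowest library. In CPM the mean was 18.8 ± 3.36 in WT and 3.31 ± 1.51 in VC cells (SD, n = 3), which gave a log2 fold change of -2.51 ± 0.34 (SE, edgeR adjusted p = 0.00104; 95% interval -3.31 to -1.71), or 5.68-fold lower. With limma on log2(FPKM + 1), a scale that shrinks the change of low genes, the log2 fold change was -1.42. Without any 1 library it lay between -2.86 and -2.20.

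Eos is best known in regulatory T cells. *Foxp3*, their defining factor, had 15, 22 and 28 counts in WT and 11, 8 and 17 in VC cells, and *Cd3e*, of the T cell receptor complex, had at most 6 counts in any library. Of 4 regulatory T cell markers, 3 were tested and 2 fell, *Il2ra* and *Tnfrsf18*, where 22.7% of all genes tested fell. *Il2ra*, with 60, 195 and 38 counts against 14, 19 and 6, had enough counts in all 3 libraries of WT cells only, so nothing is read from this count. *Tnfrsf18*, the most abundant, went from 17.7 to 8.19 FPKM, and the list summed to 18.8, 20.8 and 17.9 FPKM in WT and 10.2, 6.95 and 8.73 in VC libraries. The 10 T cell markers summed to 2.22, 3.21 and 2.77 FPKM and to 4.99, 4.71 and 3.58 FPKM. Only 2 of them were tested, of which *Lck*, tested only through the VC libraries, rose and *Cd247*, the most abundant in WT cells, fell from 1.89 to 1.05 FPKM. Without VC replicate 12 *Cd247* did not pass the threshold. The RNA was from sorted GFP+ cells, and the part of T cells in the decrease of *Ikzf4* was not tested.

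*Ikzf3* (ENSMUSG00000018168, GRCm38 chr11:98464902-98546031, minus strand) was near the limit of detection in WT cells. Its counts were 2, 3 and 10 there and 47, 56 and 20 in VC cells. The groups did not overlap, and were closest in VC replicate 13 and WT replicate 3. In CPM the mean was 0.313 ± 0.256 in WT and 2.41 ± 1.08 in VC cells (SD, n = 3), which gave a log2 fold change of 2.89 ± 0.62 (SE, edgeR adjusted p = 0.00718), with a wide 95% interval of 1.46 to 4.32. The limit for a gene with 0 reads, 3 counts, lay between 0.178 and 0.191 CPM before TMM scaling. With at least 10 counts required in every library *Ikzf3* was not tested, and with limma on log2(FPKM + 1) the log2 fold change was 0.29. Without WT replicate 3 it was 3.79. In VC cells *Ikzf3* was still in the lowest part of the genes tested, at a mean percentile of FPKM of 7.25.

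Markers of B cells, the cells best known for Aiolos, moved with *Ikzf3*. The 8 B cell markers summed to 1.19, 1.27 and 1.28 FPKM in WT libraries and to 11.9, 12.6 and 5.33 FPKM in VC libraries. Replicate 13 was the lowest VC library both for this sum and for *Ikzf3*. Of the 8 markers 6 were tested and 5 rose, where 21.5% of all genes did, but these 5, like *Ikzf3*, could be tested only through the VC libraries, so nothing is read from their count. *Cd79b*, a chain of the B cell receptor and the most abundant of them in VC cells, had 6, 0 and 6 counts against 74, 105 and 40. *Cd22*, which did not pass the threshold, had 29, 68 and 39 against 31, 30 and 13. *Ms4a1* and *Ebf1* were not tested and had at most 3 counts in any WT library. The part of B cells in the rise of *Ikzf3*, in RNA from these sorted GFP+ cells, was not tested.

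Plasma cell markers were scarcer, with *Tnfrsf17* at 0 in all libraries. The 4 markers summed to 0.369, 0.722 and 0.922 FPKM and to 3.18, 3.29 and 1.46 FPKM, again lowest in replicate 13 among the VC libraries. *Jchain*, which links antibody units, was the most abundant and the only one tested, and rose from 0.638 to 1.78 FPKM. It did not pass the threshold when VC replicate 11 or VC replicate 12 was left out. The 10 neutrophil markers were also lowest in replicate 13 among the VC libraries, with sums of 222, 177 and 534 FPKM in WT and 4178, 2637 and 1119 FPKM in VC libraries. All 10 rose (median log2 fold change 3.15), against 21.5% of all genes tested, although *Ly6g* and *Cebpe* could be tested only through the VC libraries. *S100a9*, a calcium-binding protein of neutrophils, was the most abundant. Their part in the rise of *Ikzf3* was not tested either. Replicate 13 was also the lowest VC library for the T cell, NK cell, plasmacytoid dendritic cell, eosinophil, macrophage, megakaryocyte and erythroid sums. It was not the lowest for the regulatory T cell, mast cell and basophil, stem and progenitor cell and leukocyte sums. The match with *Ikzf3* was therefore not particular to the B cell, plasma cell and neutrophil lists. In such bulk samples, more cells of a type and more RNA per cell cannot be told apart.

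**Figure D2:**
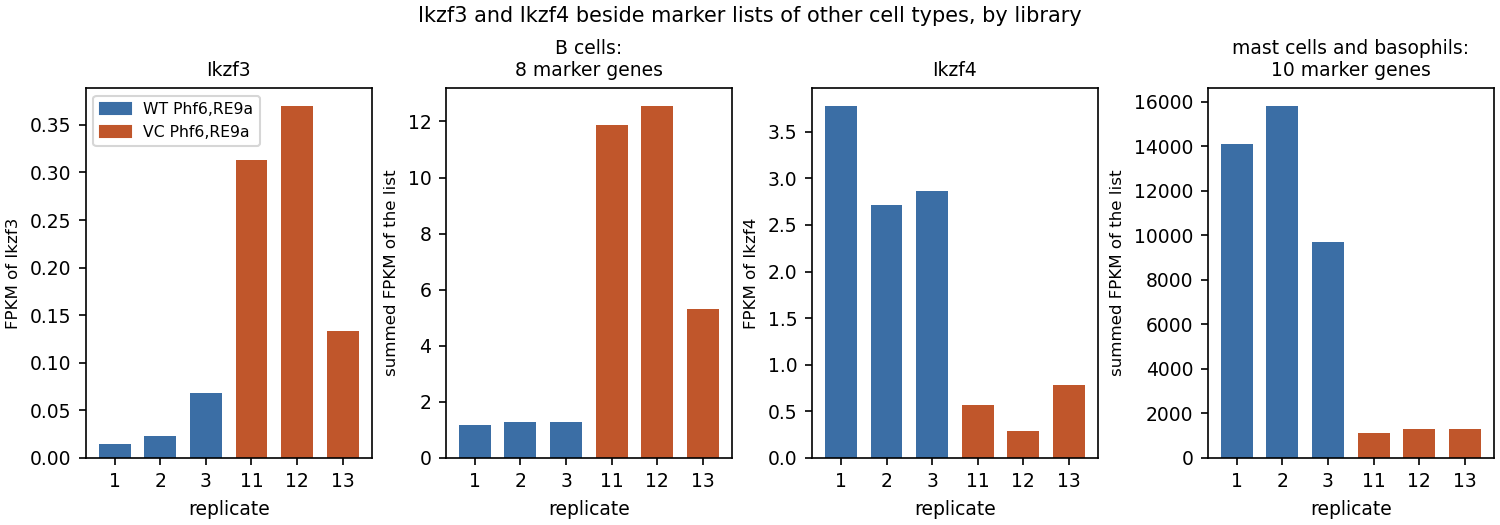
FPKM of *Ikzf3* and *Ikzf4* and the summed FPKM of the B cell and of the mast cell and basophil markers, each in the 6 libraries (1 to 3, WT; 11 to 13, VC; bars start at 0, 1 bar per library, scales differ). *Ikzf3* and the B cell sum are both lowest in replicate 13 among the VC libraries. *Ikzf4* and the mast cell sum are both lower in all 3 VC libraries, as some other marker sums are. They differ in which VC library is lowest.

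*Ikzf2* (ENSMUSG00000025997, GRCm38 chr1:69531214-69687245, minus strand), which encodes Helios, was the second most abundant member. Its counts were 3577, 3689 and 3236 in WT and 3222, 3179 and 3688 in VC cells. The groups overlapped. The level was 226 ± 27.7 and 198 ± 18.3 CPM (SD, n = 3), with a log2 fold change of -0.19 ± 0.12 (SE, edgeR adjusted p = 0.225). The 95% interval ran from -0.46 to 0.081, or from 0.727-fold to 1.06-fold. *Gm29114*, an antisense gene that overlaps *Ikzf2*, had 15, 38 and 27 counts against 10, 23 and 14 and did not pass the threshold.

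*Ikzf5* (ENSMUSG00000040167, GRCm38 chr7:131388652-131410521, minus strand), which encodes Pegasus, was low in both groups. It had 42, 39 and 55 counts in WT and 59, 38 and 51 in VC cells. The groups overlapped almost fully. The level was 2.90 ± 0.373 and 2.91 ± 0.643 CPM (SD, n = 3), with a log2 fold change of 0.0029 ± 0.28 (SE, edgeR adjusted p = 0.994), whose sign turned under several settings. The 95% interval ran from -0.64 to 0.65, or from 0.641-fold to 1.57-fold, so that changes of this size were not resolved with 3 libraries a group. The interval of *Ikzf5* overlaps that of *Pstk* on the other strand, which had 223, 196 and 217 counts against 230, 246 and 212, so some reads may have been assigned to the neighbour.

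*Trps1*, a repressor outside the family whose last fingers are of the Ikaros type, was also low. It had 44, 13 and 39 counts in WT and 46, 32 and 30 in VC cells. It missed the threshold (log2 fold change 0.057, edgeR adjusted p = 0.932). Of the other 572 genes that the table assigns to the C2H2 zinc finger class, 359 were tested, 72 rose and 73 fell, so that 40.4% were called, near the 44.2% of all genes.

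**Figure D3:**
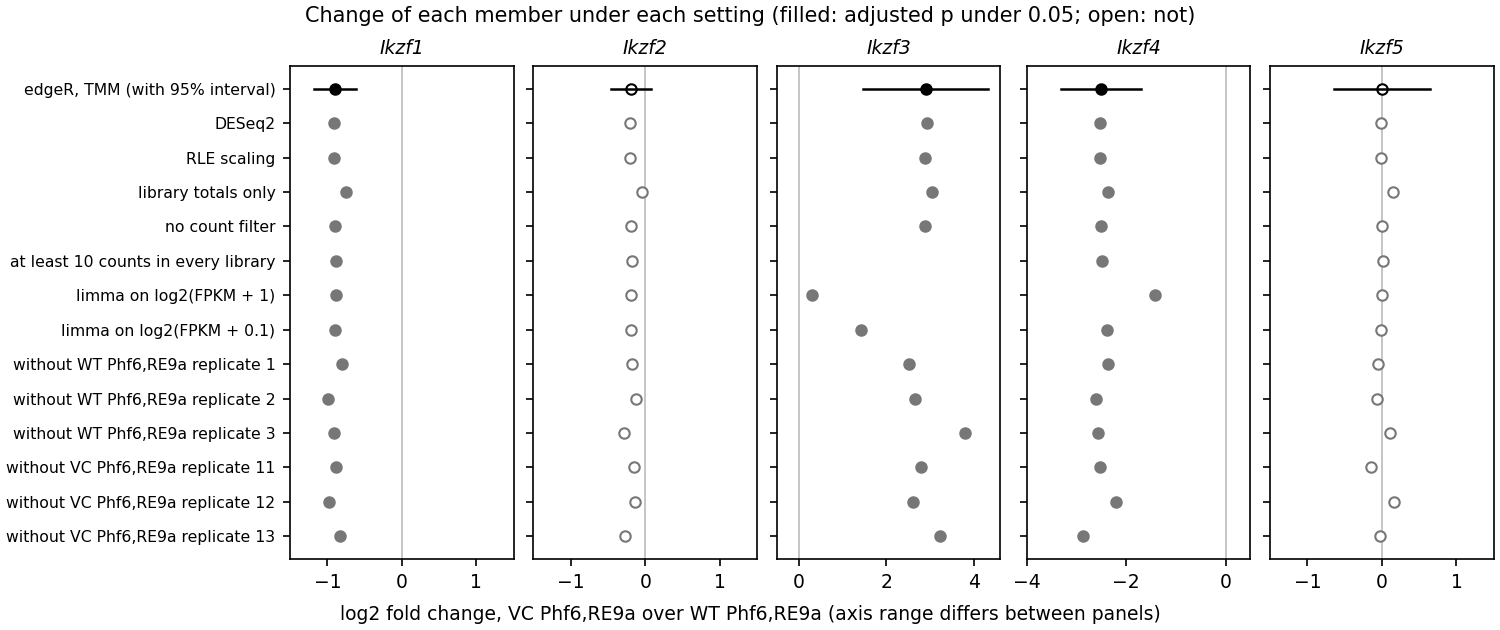
Log2 fold change of each member, VC over WT, under each processing setting (rows), filled where the adjusted p was under 0.05. The line in the top row is the 95% interval of the edgeR fit, and axis ranges differ between panels. *Ikzf1* and *Ikzf4* stay left of 0 and *Ikzf3* right of 0 and filled wherever they were tested, while *Ikzf2* and *Ikzf5* are unfilled in every row, with *Ikzf5* on both sides of 0.

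The order of the members by FPKM was *Ikzf1*, *Ikzf2*, *Ikzf4*, *Ikzf5* and *Ikzf3* in WT cells. *Ikzf1* was at 60.6 ± 7.66 FPKM (SD, n = 3), *Ikzf2* at 19.4 ± 2.41, *Ikzf4* at 3.12 ± 0.575, *Ikzf5* at 0.504 ± 0.0629 and *Ikzf3* at 0.0354 ± 0.0288. No 2 neighbours in this order overlapped in their 3 libraries. In VC cells *Ikzf1* was at 32.4 ± 3.55 FPKM, *Ikzf2* at 16.8 ± 1.46, *Ikzf4* at 0.544 ± 0.245, *Ikzf5* at 0.502 ± 0.1095 and *Ikzf3* at 0.272 ± 0.124. There *Ikzf4* and *Ikzf5* did not differ beyond their spread, and *Ikzf4* and *Ikzf3* overlapped as well, while *Ikzf5* and *Ikzf3* did not overlap.

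The summed FPKM of the family was 92.8, 77.9 and 80.2 in WT and 49.9, 52.9 and 48.9 in VC libraries. The sums did not overlap, and most of the gap was *Ikzf1*. As shares of this sum, *Ikzf1* went from 72.4% ± 3.44 to 64.0% ± 4.49 (SD, n = 3) and *Ikzf2* from 23.3% ± 3.65 to 33.4% ± 4.07. *Ikzf4* went from 3.71% ± 0.314 to 1.09% ± 0.524, *Ikzf5* from 0.607% ± 0.103 to 0.998% ± 0.246 and *Ikzf3* from 0.0436% ± 0.0367 to 0.533% ± 0.229. Shares of 1 sum are not independent, and *Ikzf2* and *Ikzf5* gained share without passing the threshold for their own level. For each of the 5 shares the groups did not overlap, and the exact 2-sided permutation test gave 0.1, the smallest p that 3 against 3 libraries allow (0.1 also after adjustment over the 5 members). The ratio of *Ikzf1* to *Ikzf2* in FPKM was 3.43, 2.49 and 3.60 in WT and 1.99, 2.28 and 1.56 in VC libraries, again without overlap.

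**Figure D4:**
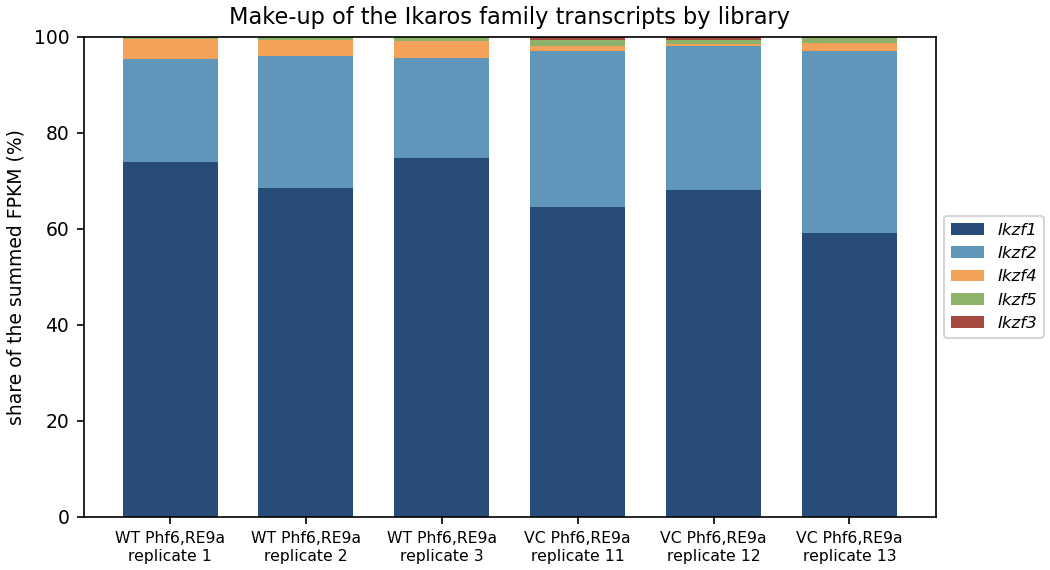
Share of each Ikaros family gene in the summed FPKM of the 5 genes, as stacked bars from 0 to 100%, 1 bar per library. *Ikzf1* and *Ikzf2* fill nearly all of every bar, and *Ikzf2*, *Ikzf3* and *Ikzf5* take a larger share in the 3 VC libraries.

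The proteins that Ikaros factors are known to work with were looked up as lists. Of 13 NuRD subunits, all were tested, 2 rose and 4 fell, with a median log2 fold change of 0.086 against 0.013 over all genes tested. The 46.2% called was near the 44.2% of all genes. With library totals as the only scaling, 4 rose and 2 fell, with a median of 0.23, and without WT replicate 2 the median was -0.026. *Chd3*, a chromatin remodelling motor of the complex, had 8398, 6323 and 6792 counts in WT and 3896, 4385 and 4087 in VC cells (log2 fold change -0.93 ± 0.12 SE, edgeR adjusted p = 0.000911). Its paralog *Chd4* also fell (log2 fold change -0.35). The subunits *Mta1* (-0.61) and *Mbd2* (-0.30), which binds methylated DNA, also fell. *Mta3*, which takes the place of *Mta1* in some complexes, rose (0.80), as did the deacetylase *Hdac1* (0.29). *Mta2*, the subunit with the highest level, was at 71.0 and 74.2 FPKM and did not pass the threshold. When VC replicate 12 or 13 was left out, 3 subunits passed.

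Of 5 further partners in the SIN3, CtBP and SWI/SNF complexes, 1 rose, the corepressor *Ctbp1* (log2 fold change 0.31, edgeR adjusted p = 0.0325), a call that was lost in 4 of the 6 fits with 1 library left out. Of all genes tested 21.5% rose, and 44.2% were called in either direction, which is the background for this list and the next 2. Cereblon, encoded by *Crbn*, is the ligase subunit through which lenalidomide and related drugs degrade Ikaros and Aiolos. *Crbn* had 791, 511 and 705 counts against 710, 729 and 757 and did not pass the threshold. Of the 7 genes of the cereblon ligase, 1 rose, the RING subunit *Rbx1* (0.72, edgeR adjusted p = 0.000996). Its most abundant gene, *Ddb1*, was at 130.4 and 147 FPKM. None of 6 genes of casein kinase 2 and protein phosphatase 1, which add and remove phosphate on Ikaros, passed the threshold in edgeR's test or in DESeq2 (2 in edgeR at an unadjusted p under 0.05), while 1 passed in the fit without WT replicate 2 and 2 with library totals as the only scaling. *Ppp1ca*, the most abundant of these, was at 229 and 224 FPKM.

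Of 8 lymphoid genes that Ikaros proteins are known to activate, 6 were tested and 4 rose. *Rag1*, of the recombinase that joins antigen receptor genes, had 0, 0 and 2 counts in WT and 128, 137 and 54 in VC cells. *Blnk*, an adaptor of B cell receptor signalling, had 1, 2 and 1 against 73, 49 and 80. *Il7r* and *Cd79b* were the other 2. All 4 had enough counts to be tested only through the VC libraries, where they are high, so nothing is read from their count beside the 21.5% of all genes that rose. These genes are also genes of B cell development, and *Rag1*, *Il7r* and *Cd79b* were lowest in replicate 13 among the VC libraries, as the B cell sum was. With at least 10 counts required in every library, of this list only *Foxo1* was left to test, which was not called.

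Of 6 genes known to be repressed by Ikaros proteins, not all of them particular to lymphoid cells, 3 were tested. Of these, 2 rose and 1 fell, where 21.5% and 22.7% of all genes tested did. *Il2* was at 0 in all libraries. *Hes1*, a target of Notch signalling, had 5305, 5838 and 2926 counts in WT and 675, 760 and 693 in VC cells (log2 fold change -2.87 ± 0.28 SE, edgeR adjusted p = 0.000227). *Myc*, a growth regulator, had 1012, 1094 and 2261 against 4362, 4372 and 4797 (1.53 ± 0.26 SE, edgeR adjusted p = 0.00265). *Dntt*, which adds bases at receptor gene joints, had 0, 0 and 5 against 38, 42 and 30, and was tested only through the VC libraries, so nothing is read from its place in the count.

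Markers of mast cells and basophils were lower in VC than in WT cells, as *Ikzf1* and *Ikzf4* were. Of 10 mast cell and basophil markers, 9 fell and 0 rose, where 22.7% of all genes tested fell, with a median log2 fold change of -2.60. Of these, *Tpsb2*, with 7, 874 and 36 counts in VC libraries, had enough counts in all 3 libraries of WT cells only. With at least 10 counts required in every library, 9 markers were tested and 8 fell, with a median of -2.04. The list summed to 14074, 15806 and 9675 FPKM in WT and to 1101, 1276 and 1316 FPKM in VC libraries. The order within groups did not match. The sum was highest in WT replicate 2, where *Ikzf1* and *Ikzf4* were lowest. Among VC libraries it was lowest in replicate 11, *Ikzf1* in replicate 13 and *Ikzf4* in replicate 12. The megakaryocyte, regulatory T cell, stem and progenitor cell and leukocyte sums were also lower in all 3 VC libraries than in any WT library. *Cpa3*, a protease of mast cell granules and the most abundant in WT cells, went from 4422 to 178 FPKM, below *Hdc*, the enzyme that makes histamine, at 396 FPKM in VC cells. *Ms4a2*, a chain of the IgE receptor, did not pass the threshold, with 17646, 16299 and 21294 counts against 16431, 16048 and 22274. All 8 erythroid markers rose (median log2 fold change 1.63), where 21.5% of all genes did, and their sum went from 2730, 1767 and 2410 to 5855, 6491 and 5566 FPKM, led by *Hbb-bs*, a beta globin, at 1627 and 3047 FPKM. The part of such differences between cells in the changes of *Ikzf1* and *Ikzf4* was not tested.

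Of the 10 tested genes nearest to the members on either side, 4 rose and 1 fell, a share near the 44.2% called among all genes. *Grb7* and *Gm29113*, among those that rose, could be tested only through the VC libraries. *Grb7*, a signalling adaptor that lies 9529 bases from *Ikzf3*, had 0, 3 and 2 counts in WT and 857, 734 and 854 in VC cells. The ratio of summed counts, scaled by library size, was 448, with an exact 95% interval for counting error alone from 192 to 1381. Replicate 13, the lowest VC library for *Ikzf3*, was not the lowest for *Grb7*. *Zpbp2*, 5066 bases away on the other side of *Ikzf3*, had 41, 27 and 58 counts against 25, 32 and 16 and missed the threshold (log2 fold change -0.90, edgeR adjusted p = 0.0855).

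Beside *Ikzf1*, *Fignl1* rose (log2 fold change 0.65 ± 0.23 SE, edgeR adjusted p = 0.0495) while *Ikzf1* fell, and *Spata48* did not pass the threshold. *Suox*, 23903 bases from *Ikzf4*, fell as *Ikzf4* did (-1.07 ± 0.26 SE, edgeR adjusted p = 0.013). The ribosomal protein gene *Rps26*, 4096 bases from *Ikzf4* on its other side, had 13397, 10271 and 11224 counts against 14887, 12736 and 15364 and did not pass. On either side of *Ikzf2*, the lincRNA *Gm29113* (3.03) and, 1340253 bases away, *Bard1* (1.16) both rose. Next to *Ikzf5*, neither *Acadsb* (-0.29), which starts 80 bases away, nor *2310057M21Rik* (0.23) passed the threshold.

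**Figure D5:**
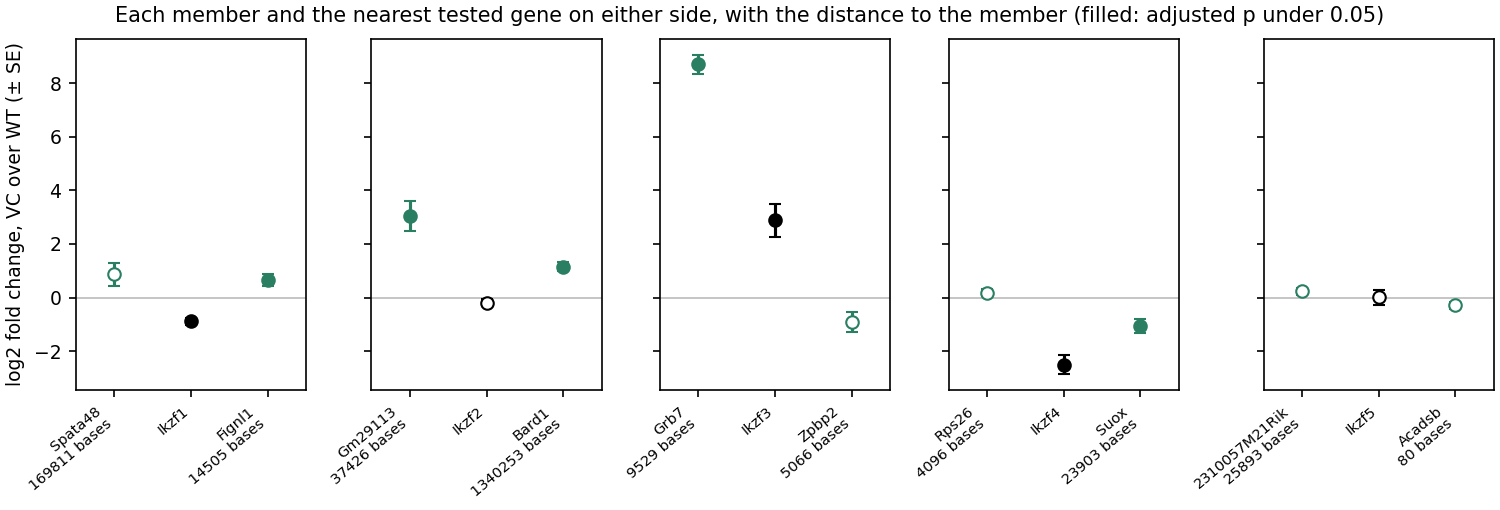
Log2 fold change (± SE, n = 3 libraries a group) of each Ikaros family gene in black and of the nearest tested gene on either side in green, with its distance in bases under its name, filled where the adjusted p was under 0.05. *Grb7*, whose fitted value rests on at most 3 counts in any WT library, stands far above *Ikzf3*, *Fignl1* lies above 0 beside a lower *Ikzf1*, and *Suox* lies below 0 beside *Ikzf4*.

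The genes whose pattern over the 6 libraries was most like each member were found by the root-mean-square difference of centred log2 CPM, where smaller is more alike. For *Ikzf1* these were *Ano8* (0.055), the tumour suppressor *Rb1* (0.076) and *Mdp1* (0.077), and *Rb1* had 2285, 1821 and 2260 counts in WT and 1119, 1256 and 1011 in VC cells. For *Ikzf4* they were the noncoding *5830418P13Rik* (0.139), *March9* (0.176), which encodes a membrane-bound ubiquitin ligase, and *Pigp* (0.197). *5830418P13Rik* had 227, 190 and 227 counts against 36, 18 and 55, lowest in replicate 12 as *Ikzf4* was. For *Ikzf3* they were *1700047M11Rik* (0.177), *Fcnb* (0.202), which encodes a ficolin made in neutrophils and their precursors, and *I830127L07Rik* (0.247). *Fcnb* had 19, 27 and 67 counts against 358, 264 and 123. For *Ikzf2*, whose spread was small, the nearest were *Tmem170b*, *Rpl24* and *Lnpep*, and for *Ikzf5* they were *Gm13680*, *Gm6136* and *Ndufaf2*. These likenesses share the libraries and their scaling, and are a description of 6 libraries only.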

How the data were processed

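The deposited table holds, for 54532 Ensembl genes and 3 libraries per group, raw read counts and the FPKM that the authors derived from them. These FPKM equal the counts divided by the gene length in the table and by a scaled library size (0.916 to 1.07 times the total count). The deposited columns of the authors' own comparison (mean values, fold changes and p-values from DESeq2) were not used. The submitters' processing notes name Bowtie 0.12.0 and mm8 without a role. The counting tool, annotation and strand setting are not given in the sources used here. Gene coordinates matched GRCm38: 54495 identifiers were found in GENCODE M21, 98.33% with identical bounds, all 5 members among them.

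The main test was edgeR's quasi-likelihood test (edgeR 4.0.16, R 4.3.3) with TMM scaling, on the 14169 genes kept by filterByExpr. P-values were adjusted by Benjamini-Hochberg over all of them, with 0.05 as threshold. Each SE was obtained from the F statistic, as log2 change over its square root. The study's methods name DESeq2, which was run as an alternative (1.42.0), as were RLE factors, library totals alone, all genes with a read, a minimum of 10 counts per library, limma 3.58.1 on log2(FPKM + 1) and log2(FPKM + 0.1), and each library left out in turn. Log2 CPM for likeness used a prior count of 2. Count limits and intervals reflect counting error alone, because without molecular identifiers reads may be copies of 1 molecule. Within groups, no libraries were duplicates: chi-square per gene lay between 32.5 and 46.4 for pairs of WT libraries and between 11.8 and 15.4 for pairs of VC libraries. Fingers were found in GENCODE M21 coding sequences by the spacing of cysteines and histidines. Figures were drawn with matplotlib 3.10.9.

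The members, the lists and the tests were chosen with earlier results of these data known. Genes named are the members, *Phf6*, *Trps1*, genes overlapping or next to a member, the 3 most alike genes of each member, in each partner or target list the most abundant gene and the 2 with the smallest p in each direction, and in each marker list the most abundant gene. Other genes of the lists were named after their values were seen. Some items of the lists and sequences are not reported here.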

Additional observations from a re-analysis of the deposited data

How the results depend on the processing

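*Ikzf1*, *Ikzf3* and *Ikzf4* kept their direction and their call, and *Ikzf2* its direction and the lack of one, under every alternative that gave a value. *Ikzf3* was not tested with at least 10 counts in every library. The log2 fold change of *Ikzf5* was -0.0074 with DESeq2, -0.0066 with RLE scaling, -0.0044 without a count filter, -0.0036 with limma on log2(FPKM + 1), -0.016 on log2(FPKM + 0.1), 0.014 with at least 10 counts in every library, 0.14 with library totals alone, and from -0.14 to 0.17 with 1 library left out. Scaling by library totals alone moved the median log2 fold change of all genes from 0.013 to 0.16, gave 4048 genes higher and 2474 lower in place of 3047 and 3213, and put *Ikzf1* at -0.74, *Ikzf2* at -0.038 and *Ikzf4* at -2.36. No paired analysis was possible because the replicate numbers of the 2 groups are not shared.

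Counts of called genes in lists moved as follows, and the cause was not tested beyond the number of genes or libraries that each setting leaves. With library totals alone, the NuRD calls were 4 higher and 2 lower in place of 2 and 4, and 2 genes of the cereblon ligase and 2 of casein kinase 2 and protein phosphatase 1 were called. Without a count filter, 0 of the SIN3, CtBP and SWI/SNF partners, 3 plasma cell, 2 NK cell and 1 macrophage marker were called, and with DESeq2 3 plasma cell and 2 NK cell markers. With at least 10 counts in every library, 0 lymphoid genes activated by Ikaros proteins, 0 B cell and 1 each of the T cell, regulatory T cell, eosinophil and megakaryocyte markers were called, and with limma on log2(FPKM + 1) 1 regulatory T cell marker. With 1 library left out, the counts ran from 3 to 6 for NuRD and 0 to 1 for SIN3, CtBP and SWI/SNF partners. They ran from 0 to 1 for casein kinase 2 and protein phosphatase 1, and 3 to 5 for the genes repressed by Ikaros proteins. For markers they ran from 0 to 3 for plasma cells, 1 to 4 for T cells and 0 to 1 for NK cells. For macrophages and for leukocytes they ran from 1 to 2.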

Other observations

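Other lists of blood cells were read in the same libraries, where 21.5% of all genes tested rose and 22.7% fell. Of 5 plasmacytoid dendritic cell markers, all were tested and 3 rose, among them *Tcf4*, their defining factor, with 11, 8 and 39 counts in *WT Phf6,RE9a* and 732, 550 and 769 in *VC Phf6,RE9a* cells, through which alone it could be tested. *Siglech*, a surface lectin of these cells, had 2, 2 and 14 against 49, 22 and 10 and did not pass the threshold. *Bst2*, the most abundant, went from 51.6 to 87.3 FPKM. Of 5 eosinophil markers 3 rose, led by *Prg2*, a granule protein, with 46, 16 and 104 counts against 379, 927 and 232. The other 2, *Epx* and *Ear1*, could be tested only through the *VC Phf6,RE9a* libraries, and 1 marker was called with at least 10 counts in every library. Of 8 macrophage markers 2 rose, *Vcam1* and *Cd68*, the latter the most abundant at 9.86 and 14.7 FPKM. Only 1 macrophage marker was called without a count filter, or when WT replicate 1, VC replicate 11 or VC replicate 12 was left out.

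Of 6 megakaryocyte markers 3 were tested. *Itga2b*, an integrin of platelets, fell from 4479, 3734 and 2734 counts to 241, 244 and 243, while *Gp9*, a platelet glycoprotein, had 3, 2 and 0 counts against 16, 21 and 24 and could be tested only through the *VC Phf6,RE9a* libraries. Of 7 stem and progenitor markers 5 were tested and 2 fell, *Kit*, the receptor for stem cell factor, from 269.96 to 30.3 FPKM, and *Cd34*, which had 3159, 11395 and 2807 counts against 129, 543 and 120. Of 3 leukocyte markers *Cd48* fell, and *Spn*, the most abundant at 115 and 89.6 FPKM, did not pass the threshold. *Ptprc*, the common leukocyte antigen CD45, was low in all libraries, with 500, 180 and 386 counts against 961, 831 and 306 (1.23 and 2.22 FPKM). None of the 5 NK cell markers had enough counts for edgeR's test. *Gzma*, the most abundant of them, had 1, 0 and 2 counts against 9, 15 and 6, and DESeq2, which tested more genes, called 2 of the list.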
